A study of Mus musculus with 2 samples.

Results

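The genes described here are core members of the Notch pathway, 10 of the 27998 genes in the count tables, picked by gene symbol. They are the receptors Notch1, Notch2 and Notch3, the ligands Jag1, Dll1 and Dll4, and the target genes Hes1, Hey1, Hey2 and Heyl. Each was followed across the cell populations of 2 single-cell libraries, endothelium included. Cells came from the pharyngeal apparatus and heart of Swiss Webster mouse embryos at embryonic day 9.5, a stage at which mesoderm of the pharynx feeds muscle of the heart and head. For each library a pair of embryos was pooled. Embryos of the group labelled Ctrl were Mesp1Cre;Rosa26-GFPflox/+, and those of the group labelled cKO were Mesp1Cre;Rosa26-GFPflox/+;Tbx1flox/flox. Both groups thus shared the Mesp1Cre driver, which acts in early mesoderm, and the GFP reporter, which marks the cells it has acted on and their descendants. Live GFP-positive cells were sorted, so lineages without Mesp1Cre activity fall outside the sort. The deposited matrices held 7418 and 10281 cells, and 6591 and 8969 were kept, with medians of 16854 and 14192 unique molecular identifiers (UMIs) per cell. Here and below, the first of a pair of values is that of the library labelled Ctrl and the second that of the library labelled cKO.

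With 1 library per genotype no difference between them has a replicate check and no test was made, so each comparison describes these libraries and not the genotypes. The study also gives the cKO embryos more somites than the Ctrl embryos, and age within the day and genotype cannot be told apart. The targeted gene goes against the label in part. Tbx1, a T-box transcription factor gene, stood at 26.5 and 44.5 CPM (UMIs on a counts-per-million scale) over all kept cells. It was higher in the library labelled cKO in multilineage progenitors (59.1 and 121) and lower there in branchiomeric muscle progenitors (121 and 95.3). Reads from 3′ ends cannot tell transcripts of the floxed allele from those of the deleted one, and every direction below is therefore that of a labelled library. Globin counts also differed between the libraries. The embryonic globin gene Hbb-y lay between 78.9 and 106 CPM in every population labelled cKO outside blood, whereas labelled Ctrl it was at 13.0 in endothelium and at or below 0.599 in the rest of these, and 159 erythroid-like cells were found in the library labelled cKO against 0 in the other. The libraries shared 12 cell barcodes among kept cells.

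Notch receptors are single-pass membrane proteins that bind ligands of the Jagged and Delta-like families on neighbouring cells. Ligand binding leads to cleavage of the receptor, and the freed intracellular part joins the DNA-binding protein RBPJ and Mastermind co-activators to switch on target genes, among them the Hes and Hey families of basic helix-loop-helix repressors. In the embryo the pathway is known for arterial identity of endothelium, for the endocardium and the valves and trabeculae that depend on it, for the outflow tract, and for the timing of somite formation.

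The annotation places the members on 6 chromosomes of the GRCm38 mouse genome. The receptor genes are Notch1 (ENSMUSG00000026923; chr2:26457902-26503822), Notch2 (ENSMUSG00000027878; chr3:98013538-98150367) and Notch3 (ENSMUSG00000038146; chr17:32120820-32166896). The ligand genes are Jag1 (ENSMUSG00000027276; chr2:137081451-137116520), Dll1 (ENSMUSG00000014773; chr17:15367354-15376932) and Dll4 (ENSMUSG00000027314; chr2:119325784-119335666). The target genes are Hes1 (ENSMUSG00000022528; chr16:30065357-30067796), Hey1 (ENSMUSG00000040289; chr3:8663359-8667038), Hey2 (ENSMUSG00000019789; chr10:30832359-30842783) and Heyl (ENSMUSG00000032744; chr4:123233556-123249870).

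RBPJ binds a short sequence often written GTGGGAA, so the promoters of the members were read for these letters on both strands. RefSeq promoters, each 250 bases before and 50 bases after a transcript's start on GRCm38.p6, were at hand for 7 of the members. The motif GTGGGAA was present in 2097 of 32851 mouse promoters (6.38%), and the shorter TGGGAA, which it contains, in 25.6%. None was at hand for Hes1, Hey1 or Heyl, so Hey2 was the only target gene whose promoter could be read. Among the members' 8 promoters, the Hey2 promoter alone held either. It is shown because Hey2, among the target genes, was at least 1.5-fold lower in some populations labelled cKO and at least 1.5-fold higher in another. The stretch runs 5′ to 3′ on the minus strand, chr10:30842781-30843033, and ends 3 bases past the start. The capitals mark GTGGGAA and, read from the other strand, TTCCCAC, whose first bases lie 4 and 207 bases before the start.
Hey2 promoter: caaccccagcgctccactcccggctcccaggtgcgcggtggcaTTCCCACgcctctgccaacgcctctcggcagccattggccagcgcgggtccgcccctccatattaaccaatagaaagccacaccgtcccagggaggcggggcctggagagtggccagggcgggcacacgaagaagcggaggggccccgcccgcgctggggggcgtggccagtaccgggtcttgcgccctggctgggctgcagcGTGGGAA
A match to these letters is a description of the sequence and no sign of a bound site.

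Cells were clustered without the members or any listed gene of the pathway, so that differences in these genes did not place the cells. Clusters were named from marker lists, some of populations the study described and others, such as sinus venosus and pharyngeal mesenchyme, not among its named clusters. Named populations were endothelium-like (365 and 376 cells), cardiomyocyte-like (CM-like; 264 and 468), branchiomeric muscle progenitor-like (BrM-like; 525 and 707), multilineage primed progenitor-like (MLP-like; 1080 and 1746) and posterior second heart field-like (pSHF-like; 1184 and 1208). A mixed class of anterior second heart field and somatic mesoderm cells (SoM/aSHF-like) held 481 and 573 cells. Further names went to sinus venosus-like, septum transversum-like, pharyngeal mesenchyme-like, paraxial mesoderm-like and blood cells, while 3 clusters stayed unnamed and are called by leading genes (Pax1 and Zic1, Gal and Rgcc, Barx1 and Ifitm1). In the sinus venosus-like cluster 100% of its own list stood out, and 90% of an epicardium list. That name therefore does not set the cluster apart from epicardium. The endothelial name held in both libraries. All 12 endothelial markers were higher there than in other cells, with summed levels of 3597 and 3284 CPM against 82.9 and 79.1. The names rested on less in the progenitor classes, where 10 and 9 of 11 MLP markers, 10 and 8 of 10 BrM markers and 12 and 10 of 12 SoM/aSHF markers were higher than in other cells. Summed BrM markers stood at 1759 and 721 CPM, so cells grouped as BrM-like differed between the libraries in the markers themselves.

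Levels below are UMIs of a gene summed over a population and divided by the population's total, in CPM. Ranges in parentheses are 95% intervals, which cover counting error only and not the spread between embryos or libraries. Levels of 1 gene are compared between populations. Levels of different genes are not compared with each other.

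**Figure D1:**
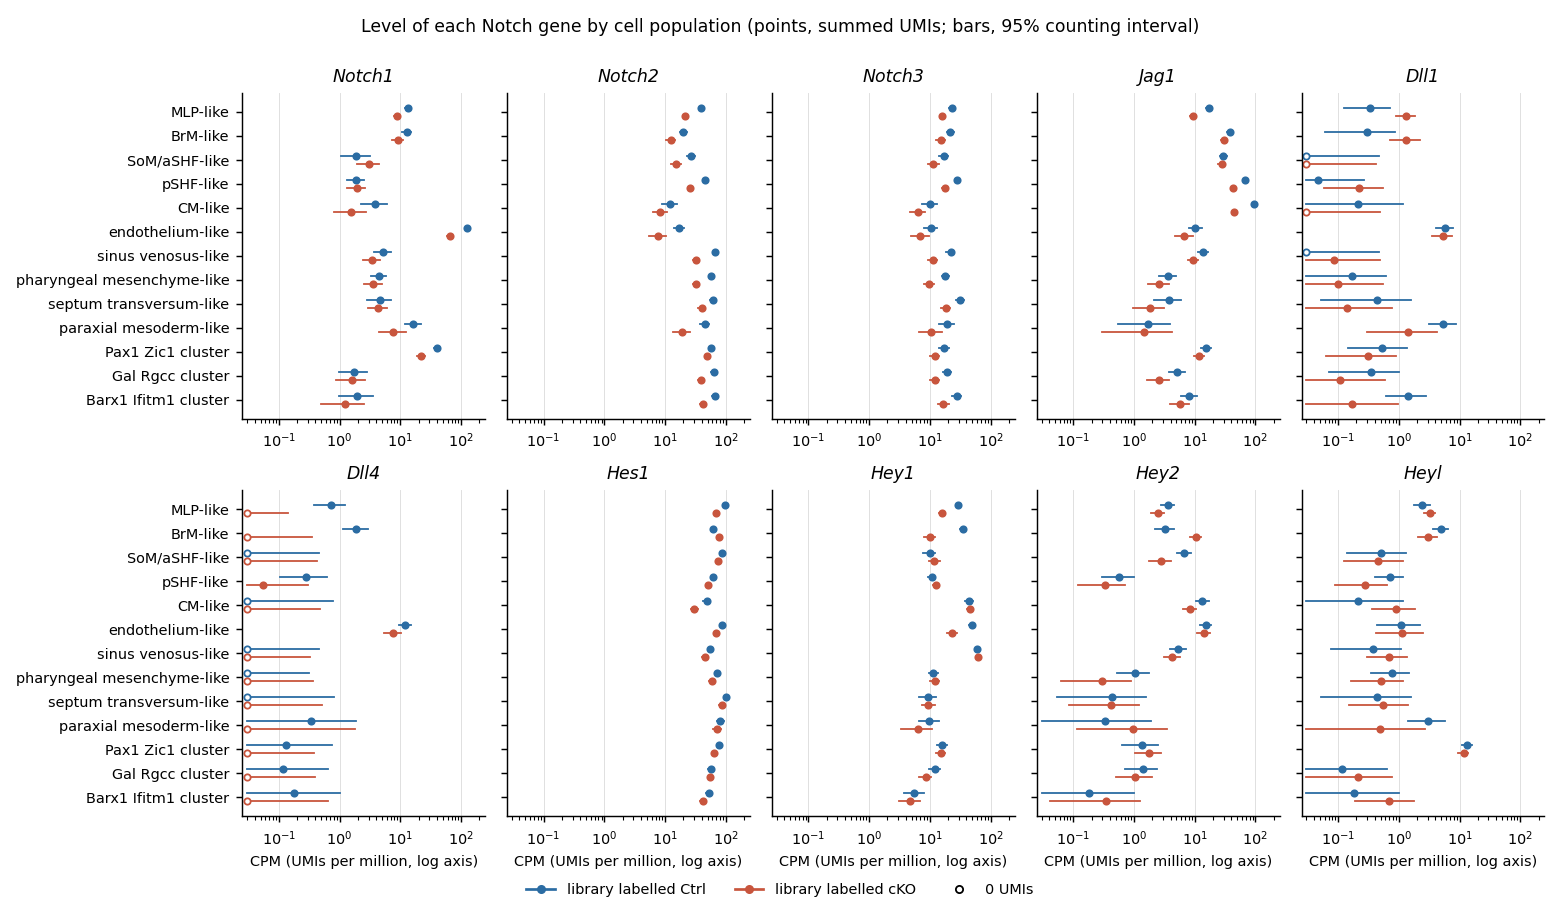
Level of each of the 10 members, in CPM on a log axis, in each cell population, with 1 point per library and bars for the 95% counting interval. Notch1 and Dll4 stand highest in endothelium-like cells (125 and 66.4, and 12 and 7.53 CPM), Jag1 in CM-like cells (95.9 and 45.2), and Heyl in the cluster led by Pax1 and Zic1 (13.4 and 11.7).

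Notch1, the receptor that endothelium and endocardium are known to depend on, was highest in endothelium-like cells of both libraries. It stood there at 125 (116 to 134) and 66.4 (59.7 to 73.7) CPM. The cluster led by Pax1 and Zic1, genes of the sclerotome, came next at 39.7 and 22.0, below endothelium and above every other population without overlap of intervals. Paraxial mesoderm-like (16.3 and 7.70), MLP-like (13.5 and 8.85) and BrM-like cells (12.7 and 9.04) came after these, with intervals that overlapped each other. The other populations of at least 50 cells lay at or below 5.16 and 4.31 CPM. Endothelium-like cells thus held 46.3% of all Notch1 UMIs labelled Ctrl and 31.7% of those labelled cKO. The level in endothelium exceeded that in all other cells by a log2 ratio of 3.90 (3.76 to 4.04) and 3.52 (3.34 to 3.71). Cdh5 (VE-cadherin), a gene of endothelium proper, gave log2 ratios of 9.43 and 9.83 in the same comparison, so a larger share of Notch1 than of Cdh5 lay outside endothelium.

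Counted per cell, Notch1 was found in most endothelial cells at full depth. A Notch1 UMI was present in 77.3% and 57.2% of endothelium-like cells, with medians of 16495 and 13680 UMIs per cell. After each cell was thinned to 5000 UMIs the shares were 40.7% (35.5 to 45.9) and 28.8% (24.2 to 33.8). Thinned CM-like cells, the background for this gene, gave 0.766% and 0.429%, with medians of 16632 and 15080 UMIs before thinning. The difference between the libraries therefore remained at equal depth.

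Notch2 was distributed otherwise. This receptor, widely used in mesenchyme, was found throughout the mesoderm and was lowest of the 13 populations in CM-like (11.9 and 8.35 CPM) and endothelium-like cells (17 and 7.72). Sinus venosus-like cells were highest labelled Ctrl (66.0, and 32.6 labelled cKO), and the cluster led by Pax1 and Zic1 was highest labelled cKO (57.8 and 49.6). The upper part of the order was flat in the library labelled Ctrl, where sinus venosus-like cells, the clusters led by Barx1 and Ifitm1 (65.2) and by Gal and Rgcc (63.2), and septum transversum-like cells (62.4) overlapped. Endothelium lay below the other cells, with log2 ratios of -1.43 (-1.72 to -1.15) and -1.78 (-2.27 to -1.34).

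Notch3, a receptor best known from smooth muscle and pericytes, was spread most evenly of the receptors. Septum transversum-like cells carried 31.4 and 18.4 CPM, pSHF-like cells 27.8 and 17.6, MLP-like cells 22.8 and 15.9 and BrM-like cells 21.8 and 15. Of the 13 populations found in both libraries CM-like cells were lowest, at 10.1 and 6.27, next to endothelium-like cells at 10.3 and 6.96. As with Notch2, endothelium lay below the remaining cells, with log2 ratios of -1.08 and -0.94.

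Among the ligands, Jag1 was the gene of heart muscle and of the posterior second heart field. It is the ligand whose human counterpart is mutated in Alagille syndrome, in which the outflow vessels are affected. Its level was 95.9 (87.4 to 105) and 45.2 (40.5 to 50.2) CPM in CM-like cells and 66.5 (63.1 to 70.1) and 42.6 (39.6 to 45.7) in pSHF-like cells. These populations were distinct in the library labelled Ctrl, and their intervals overlapped in the library labelled cKO. BrM-like (38.3 and 30.2) and SoM/aSHF-like cells (29.5 and 28.0) followed, then MLP-like cells (17.4 and 9.35) and the cluster led by Pax1 and Zic1 (15.6 and 11.8), and paraxial mesoderm-like cells were lowest of the mesodermal populations at 1.70 and 1.44. A Jag1 UMI was present in 68.2% and 45.3% of CM-like cells, and after thinning in 36.8% (30.9 to 42.9) and 20.6% (17 to 24.6). No Jag1 UMI was found in 159 thinned erythroid-like cells labelled cKO, which allows a share of up to 1.89% at a median of 25427 UMIs before thinning.

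Dll4, the ligand of arterial and sprouting endothelium, was sparse and mostly endothelial. Endothelium-like cells held 77 and 40 Dll4 UMIs, or 12 (9.48 to 15) and 7.53 (5.38 to 10.3) CPM. They were spread over 60 of 365 and 33 of 376 cells, of which 50 and 31 also carried Cdh5. No Dll4 UMI was seen in either library in CM-like, SoM/aSHF-like, sinus venosus-like, septum transversum-like or pharyngeal mesenchyme-like cells. The libraries differed outside endothelium. There the library labelled Ctrl held 42 Dll4 UMIs in 36 of 6226 cells, whereas the library labelled cKO held 1 UMI in 1 of 8593 cells, so that endothelium had 64.7% and 97.6% of all Dll4 UMIs.

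Those Dll4 UMIs outside endothelium lay mainly in the progenitor populations. BrM-like cells labelled Ctrl held 19 UMIs in 17 of 525 cells (1.90 CPM, 1.14 to 2.96), and MLP-like cells held 13 UMIs in 11 of 1080 cells (0.726, 0.386 to 1.24). The library labelled cKO held 0 in 707 BrM-like and 0 in 1746 MLP-like cells. Against the 3 counts that a count of 0 allows in each class of that library, Dll4 was at least 6.71-fold lower in BrM-like and at least 6.31-fold lower in MLP-like cells labelled cKO. That bound takes the counts labelled Ctrl as they are, and with their counting error included the log2 ratio had upper 95% limits of -2.31 and -2.15. The 17 BrM-like cells with Dll4 were not marked as endothelial, since 0 of them carried Cdh5 and 0 carried Pecam1, while 17 carried Tbx1, 10 carried Hey1 and 4 carried Notch1. Of the 11 such MLP-like cells 0 carried Cdh5 or Pecam1, 7 carried Tbx1 and 2 carried Hey1. Tbx1 was common in these classes labelled Ctrl, with 1209 UMIs in the 525 BrM-like and 1059 in the 1080 MLP-like cells. Hey1 was common in BrM-like cells too, and its share is given further below. No co-expression with Dll4 is therefore read from these counts. The summed endothelial markers stood at 108 and 93.6 CPM in BrM-like and at 116 and 80.7 in MLP-like cells. Split by sex-linked transcripts, BrM-like cells labelled Ctrl with Xist alone held 9 Dll4 UMIs and those with Y-linked UMIs alone held 9, so cells of both sexes carried them. MLP-like cells held 9 and 3. A split by sex may also be a split by embryo, since each library pooled a pair of them.

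After thinning to 5000 UMIs, Dll4 was found in 7.80% (5.25 to 11.1) and 3.85% (2.12 to 6.37) of endothelium-like cells, against 16.4% and 8.78% without thinning. The share in BrM-like cells was 1.15% (0.423 to 2.48) labelled Ctrl and 0 of 704 cells labelled cKO, which allows a share of up to 0.426%. Unthinned shares in BrM-like cells were 3.24% and 0, with medians of 18415 and 14108 UMIs. Thinned CM-like cells gave 0 of 261 and 0 of 466 cells, which allows up to 1.15% and 0.644%, so the thinned share in BrM-like cells labelled Ctrl lay at the limit of what this background can resolve.

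Dll1, the ligand known from the segmenting somites, was low everywhere. Endothelium-like cells (37 and 28 UMIs; 5.78 and 5.27 CPM) and, labelled Ctrl, paraxial mesoderm-like cells (16 UMIs; 5.43 CPM) were highest. The latter population labelled cKO held 3 UMIs, a log2 ratio of -1.91 (-4.33 to -0.11). In MLP-like cells the direction was opposite, with 6 UMIs in 6 cells labelled Ctrl and 34 UMIs in 24 cells labelled cKO, or 0.335 (0.123 to 0.729) and 1.30 (0.903 to 1.82) CPM. Of these 24 cells 12 carried Notch1, 12 carried Tbx1 and 0 carried Cdh5. All 1746 MLP-like cells labelled cKO held 3148 Tbx1 UMIs, and no co-expression with Dll1 is read from these counts. BrM-like cells went the same way, from 3 to 14 UMIs, a log2 ratio of 2.14 (0.30 to 4.58).

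The target genes separated the populations further. Hes1, a target with many other inputs, was present in every mesodermal population, between 48.2 CPM in CM-like cells and 102 in septum transversum-like cells labelled Ctrl. Septum transversum-like and MLP-like cells (97.7, 93.2 to 102) overlapped at the top of that library, and septum transversum-like (85.3), BrM-like (76.0) and SoM/aSHF-like cells (75.6) stood highest labelled cKO. Erythroid-like cells, the background population, held 5.74.

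Hey1 was highest in the sinus venosus-like cluster, in which most epicardium markers stood out as well, at 60.1 (54.9 to 65.8) and 62.6 (58.1 to 67.4) CPM. This transcriptional repressor is known from the atria, the arteries and the atrioventricular boundary. Labelled Ctrl, endothelium-like (49.5, 44.2 to 55.2), CM-like (44.0, 38.2 to 50.4), BrM-like (35.3) and MLP-like cells (29.5) followed in that order, each overlapping the next, above the remaining populations at 15.9 or less. Labelled cKO, CM-like cells (45.0, 40.4 to 50.1) came second and endothelium-like cells (23.3) after them. MLP-like cells of that library (15.8) overlapped the cluster led by Pax1 and Zic1 (15), and BrM-like cells (9.89, 8.09 to 12) overlapped pSHF-like (12.6) and SoM/aSHF-like cells (11.9). The endothelial excess over other cells was 1.24 (1.06 to 1.41) and 0.37 (0.10 to 0.63) on the log2 scale. No Hey1 UMI was found in 159 thinned erythroid-like cells, which allows up to 1.89%, against 24.9% and 26.2% of thinned sinus venosus-like cells.

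Hey2, the ventricular and endocardial member of the family, was highest in endothelium-like cells (15.3 and 14.1 CPM), where its interval overlapped that of CM-like cells labelled Ctrl (13.4). BrM-like cells were low labelled Ctrl (3.19) and second to endothelium labelled cKO (10.4), with overlapping intervals. Heyl, in contrast, was a gene of the cluster led by Pax1 and Zic1, at 13.4 (10.9 to 16.2) and 11.7 (9.60 to 14.0) CPM. In thinned cells of that cluster it was found in 5.81% and 4.41% (16.5% and 10.6% unthinned, medians of 17258 and 13949 UMIs), against 0 of 261 and 0 of 466 thinned CM-like cells, the background for this gene. Lower levels were found in BrM-like (4.89 and 3.01), MLP-like (2.46 and 3.22) and, labelled Ctrl, paraxial mesoderm-like cells (3.05), and endothelium held 1.09 and 1.13. That cluster was also the second site of Notch1, and its Dll4 count was 1 and 0 UMIs.

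Within endothelium and heart muscle the members divided the cells more finely. Both classes were clustered again, still without the members, and named from lists of their regional markers. Endothelium gave an endocardium-like (70 and 96 cells), a venous or lymphatic-like (125 and 137), a haemogenic-like (86 and 80) and a small arterial-like group (14 and 14), and an unnamed group (70 and 49) that held most of the endocardium list but none of it among its leading genes. The haemogenic-like name rests on Etv2, Tal1, Lmo2 and Gata2, while Runx1, Spi1 and Itga2b of its list did not stand out. In that group 57.1% of its own list stood out, and 44.4% of the venous or lymphatic list.

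**Figure D2:**
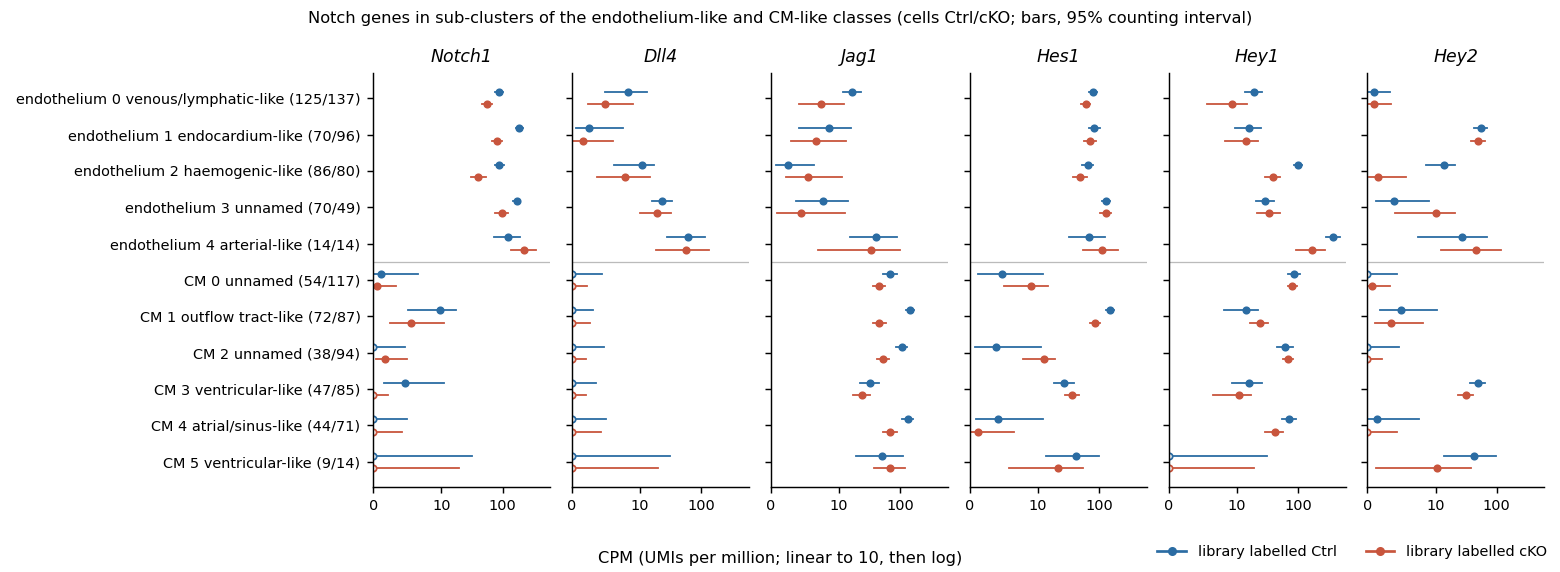
Level of the members, in CPM, in the groups within endothelium-like and CM-like cells, with 1 point per library and bars for the 95% counting interval. Hey1 is highest in the 14 and 14 arterial-like cells (380 and 169), Hey2 in endocardium-like (55.1 and 50) and ventricular-like cells (48.8 and 31.4), and Jag1 in outflow-like cells labelled Ctrl (146 against 45.8).

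Notch1 labelled Ctrl stood at 188 (164 to 215) CPM in endocardium-like cells and 171 (150 to 195) in the unnamed group, against 88.9 in venous or lymphatic-like and 89.3 in haemogenic-like cells. The same groups labelled cKO held 81.7, 98.8, 56.2 and 40.3. The arterial-like cells went the other way, at 122 (72.4 to 193) and 226 (138 to 349), on 18 and 20 UMIs, and labelled Ctrl their interval overlapped those of the other groups. Notch1 was thus lower labelled cKO in 4 of the 5 groups, with intervals of the log2 ratio below 0 in each of the 4.

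Hey1 and Hey2 were highest in different groups of endothelium. Hey1 stood at 380 (287 to 494) and 169 (94.8 to 279) CPM in arterial-like and at 101 (86.2 to 118) and 38.8 (28.8 to 51.1) in haemogenic-like cells. In endocardium-like cells Hey1 was at 16.1 and 14.2. Hey2 stood at 55.1 (42.6 to 70.3) and 50 (38.2 to 64.4) in endocardium-like cells, where the libraries overlapped, and at 13.7 (22 UMIs) and 1.55 (2 UMIs) in haemogenic-like cells. Hey2 was therefore similar between the libraries over the whole endothelium while it was lower in 1 of its groups, with a log2 ratio of -3.15 (-6.28 to -1.12).

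Among the ligands, Dll4 was highest in the arterial-like cells. It was at 61.1 and 56.5 CPM there, on 9 and 5 UMIs, and at 23.1 and 18.9 in the unnamed group, whose intervals overlapped these, against 8.24 and 4.88 in venous or lymphatic-like cells. Jag1 was at 40.7 and 33.9 in arterial-like cells, on 6 and 3 UMIs, and at 16.5 and 7.33 in venous or lymphatic-like cells, with intervals that overlapped. Dll1 was at 12.3 and 13.1 in the unnamed group (16 and 9 UMIs) and had 0 and 1 UMIs in arterial-like cells. In single thinned endothelial cells Dll4 and Hey1 were found together in 14 of 359 cells labelled Ctrl, 3.90% (2.15 to 6.46), where the product of their shares is 1.17%. Labelled cKO they were found together in 5 of 364 cells, 1.37% (0.447 to 3.18), against a product of 0.349%. Notch1 and Dll4 coincided in 2.51% and 1.10% of cells, near their products of 3.17% and 1.11%.

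Heart muscle split along the same pair of targets. CM-like cells gave an outflow-like group (72 and 87 cells), a ventricular-like group (47 and 85, with a further 9 and 14 cells), an atrial or sinus-like group (44 and 71) and a pair of unnamed groups, 1 of them led by cell-cycle genes. Hey2 was at 48.8 (36.5 to 64.1) and 31.4 (23.6 to 40.8) CPM in the larger ventricular-like group and at 4.93 and 3.47 in outflow-like cells. Hey1 was at 72.2 (54.1 to 94.4) and 41.9 (29.3 to 58.0) in atrial or sinus-like cells and at 16.0 and 10.8 in the larger ventricular-like group. In the largest CM-like cluster of the main clustering (131 and 275 cells) Hey1 stood at 76.3 and 69.7. The atrial or sinus-like group labelled cKO was thus not where Hey1 was highest in heart muscle. Both genes were found together in 0 of 261 and 0 of 466 thinned CM-like cells, with upper 95% limits of 1.40% and 0.788%, and the products of their shares, 1.22% and 0.546%, lay within these limits. These exact limits are wider than the bound of 3 counts used above for Dll4, which the product labelled Ctrl would pass.

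Hes1 and Jag1 met in the outflow-like cells. Hes1 stood there at 153 (132 to 176) and 86.8 (72.3 to 103) CPM, while the ventricular-like cells held 27.2 and 36.5 and the unnamed groups 4.70 and 8.98, and 3.80 and 12.6. Jag1 stood at 146 (126 to 169) and 45.8 (35.4 to 58.3) in outflow-like cells, a log2 ratio of -1.67 (-2.10 to -1.26). In atrial or sinus-like cells Jag1 was at 133 and 68.6, and in the larger ventricular-like group at 31.9 and 23.4, within counting error of each other. The difference in Jag1 between the libraries was therefore largest in the outflow-like group of these groups. Among pSHF-like cells, Jag1 was at 112 and 77.1 in the cluster with Osr1 and Wnt2 and between 48.2 and 48.5, and 23.6 and 29.7, in the other clusters.

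The question the design poses is how cells with Tbx1 targeted differ from control cells. Over the 6 main classes most receptor and ligand values were lower in the library labelled cKO, and so were those of many other genes. Genes with at least 30 UMIs over both libraries in a class were compared, and a gene was counted when its level differed at least 1.5-fold. Of all genes compared, 10289 to 12288 per class, the median log2 ratio lay between -0.16 and -0.08. More genes were counted lower than higher in each class, and the members' counts are set beside those shares.

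**Figure D3:**
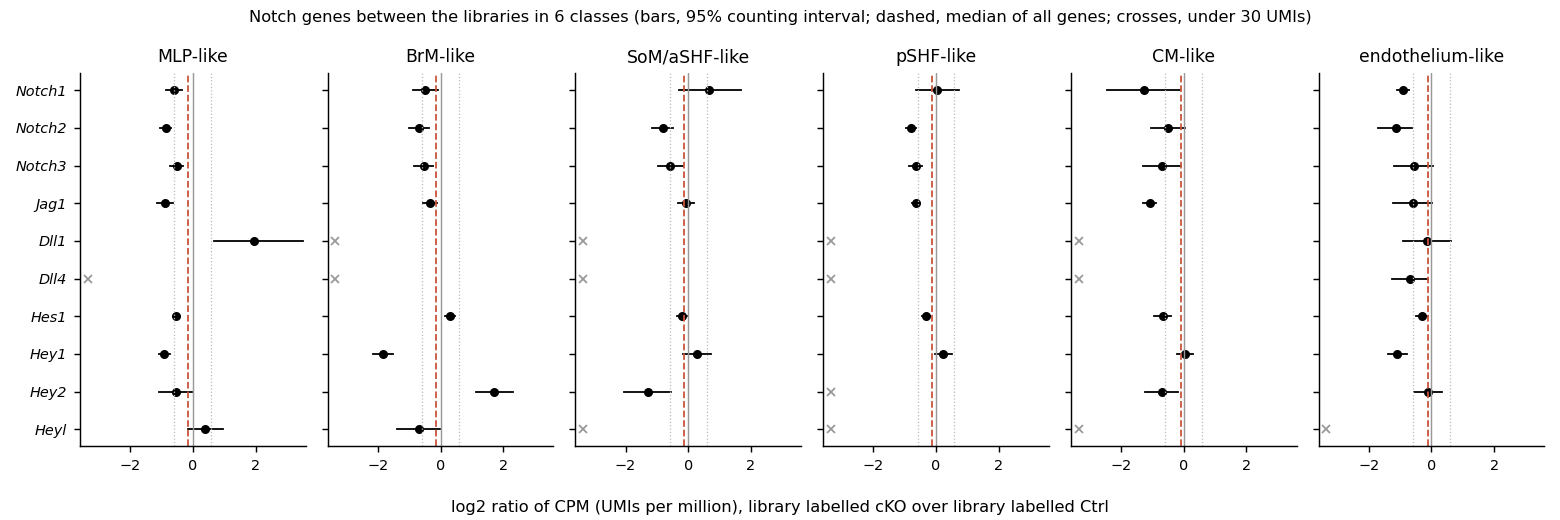
Log2 ratio of each member between the libraries (labelled cKO over labelled Ctrl) in the 6 main classes, with bars for the 95% counting interval and the median of all genes compared in each class. Notch2 and Notch3 lie below 0 in each class, while Hey2 lies at 1.70 in BrM-like and -1.28 in SoM/aSHF-like cells and Hes1 lies above 0 in BrM-like cells alone.

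In MLP-like cells 9 members could be compared, of which 4 (Notch1, Notch2, Jag1 and Hey1) were at least 1.5-fold lower labelled cKO, where 18.1% of all genes were. Dll1 was at least 1.5-fold higher, as were 4.44% of all genes. The members' median log2 ratio was -0.54 against -0.16 for all genes. Ratios were -0.90 (-1.09 to -0.72) for Hey1, -0.89 (-1.14 to -0.65) for Jag1, -0.87 for Notch2, -0.60 (-0.87 to -0.34) for Notch1 and -0.52 (-0.62 to -0.43) for Hes1. Notch3 had -0.52, Hey2 -0.54 (-1.07 to -0.02) and Dll1 1.96, with a lower limit of 0.69. Heyl had 0.39 (-0.15 to 0.95), within counting error. The counts for Notch1 and Jag1 did not hold throughout. Notch1 had -0.03 in cells with Xist UMIs alone and -1.28 in those with Y-linked UMIs alone, and -0.26 with doublets kept, and Jag1 had -0.21 in a first clustering pass. The clusters pooled in this class were unlike each other in Hey1. In the cluster with Crym and Tgfbi among its leading genes Hey1 was at 39.8 and 15 CPM (log2 ratio -1.41), and in the cluster with Six2 and Ebf2 at 20.2 and 16.5, a log2 ratio of -0.29. Jag1 had log2 ratios of -0.57 and -1.06 in these clusters.

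In BrM-like cells 3 of 8 members (Hey1, Notch2 and Heyl) were at least 1.5-fold lower labelled cKO, where 17.4% of all genes were, and Hey2 was higher, as were 6.31% of all genes. The median over the members was -0.51 against -0.13. These values rest on the integration of the libraries, without which 493 and 3 cells were named BrM-like, and 481 and 9 MLP-like. Among these 8, Hey1 was lowest and Hey2 highest. Hey1 had a log2 ratio of -1.84 (-2.16 to -1.52), and 1.91% of the genes compared were as low or lower. Hey2 went from 32 to 110 UMIs, a log2 ratio of 1.70 (1.12 to 2.31), and 0.95% of genes were as high or higher. Thinned cells gave the same order, with Hey1 in 12.6% (9.92 to 15.8) and 4.69% (3.25 to 6.52) and Hey2 in 2.68% (1.47 to 4.46) and 5.11% (3.61 to 7.01). Without thinning these shares were 40.8% and 11.2% for Hey1, and 5.71% and 13.3% for Hey2. Hey2, like Hey1, was absent from 159 thinned erythroid-like cells. Hes1 was higher labelled cKO, with 61.5 and 76.0 CPM and a log2 ratio of 0.31 (0.15 to 0.46), in this class and in no other of the 13 populations with cells in both libraries and at least 30 Hes1 UMIs. Notch2 had -0.68, Heyl -0.70 (-1.39 to -0.03), Notch3 -0.54, Notch1 -0.49 and Jag1 -0.34. Dll1 and Dll4, with their UMIs given above, were too sparse to enter. The lower Tbx1 of these cells (121 and 95.3 CPM) and their lower BrM markers stand beside these values, and their part in them was not tested.

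In SoM/aSHF-like cells 2 of 7 members (Notch2 and Hey2) were at least 1.5-fold lower labelled cKO, where 15.5% of all genes were. Notch1 was counted as higher, as were 3.91% of all genes, on 15 and 26 UMIs, with an interval that included 0 (-0.31 to 1.68). That count was lost in several alternatives, with a lowest log2 ratio of 0.35 in a first clustering pass. Hey2 went from 6.72 (5.03 to 8.79) to 2.77 (1.78 to 4.13) CPM, with a ratio of -1.28 (-2.04 to -0.55) on the log2 scale, the reverse of BrM-like cells. The members' median was -0.21 against -0.13 for all genes, and it was -0.45 in cells with Xist UMIs alone. Jag1, at -0.08 (-0.34 to 0.19), differed by less than counting error. Notch2 had -0.82, Notch3 -0.57, Hes1 -0.21 and Hey1 0.27 (-0.17 to 0.71). Heyl had 4 and 4 UMIs, and Dll1 and Dll4 had none.

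In pSHF-like cells 3 of 6 members (Jag1, Notch2 and Notch3) were at least 1.5-fold lower labelled cKO, where 13.1% of all genes were, and 0 were higher, where 3.29% of all genes were. Ratios were -0.79 for Notch2, -0.65 for Notch3 (-0.55 in cells with Xist UMIs alone) and -0.64 (-0.77 to -0.52) for Jag1. Jag1 had -0.53 in the cluster with Osr1 and Wnt2 alone, and Notch2 had -0.58 in the largest cluster alone, both short of 1.5-fold. Hes1 had -0.31 (-0.43 to -0.19), Hey1 0.23 (-0.04 to 0.51) and Notch1 0.05 (-0.65 to 0.74). Too sparse to compare were Hey2 (12 and 6 UMIs), Heyl (15 and 5), Dll4 (6 and 1) and Dll1 (1 and 4). The median was -0.48 against -0.13.

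In CM-like cells 5 of 7 members (Notch1, Notch3, Jag1, Hes1 and Hey2) were at least 1.5-fold lower labelled cKO, where 12.7% of all genes were, and 0 were higher, where 4.84% of all genes were. The median was -0.68 against -0.08. Jag1 had a log2 ratio of -1.09 (-1.29 to -0.88), and 1.81% of genes were as low or lower. Notch1 had -1.27 (-2.45 to -0.13) on 18 and 12 UMIs, Notch3 -0.68 (-1.29 to -0.07), Notch2 -0.52 (-1.05 to 0.03) and Hey1 0.03 (-0.22 to 0.29). CM-like cells served above as the background for Notch1, so its ratio here is not read as a change in that gene. Heyl had 1 and 7 UMIs, Dll1 had 1 and 0, and Dll4 had none. Hes1 did not differ alike within the class. In the outflow cluster (72 and 89 cells) its ratio was -0.80 (-1.13 to -0.47), whereas in the largest cluster (131 and 275 cells) it was 1.54 (0.35 to 2.95) on 7 and 37 UMIs, and in the remaining one 0.11 (-0.50 to 0.74). Hes1 in the largest cluster stood at 3.03 and 8.80 CPM, around the 5.74 of erythroid-like cells labelled cKO, its background population. The outflow cluster, where Hes1 was highest, also made up a smaller share of the class labelled cKO (89 of 468 cells, against 72 of 264). Hey2 had -0.70 (-1.23 to -0.18) over the class, and 0.05 in cells with Y-linked UMIs and no Xist UMI. The counts for Notch1, Notch3 and Hes1 did not hold throughout either, since Notch1 had -0.16 in cells with Xist UMIs alone, while with all barcodes Notch3 had -0.30 and Hes1 had -0.40.

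In endothelium-like cells 5 of 9 members (Notch1, Notch2, Jag1, Dll4 and Hey1) were at least 1.5-fold lower labelled cKO, where 15.0% of all genes were, and 0 were higher, where 3.30% of all genes were. The median was -0.60 against -0.12. Ratios were -1.14 for Notch2, -1.08 (-1.40 to -0.78) for Hey1, -0.91 (-1.09 to -0.73) for Notch1 and -0.67 (-1.26 to -0.11) for Dll4. Hey2 had -0.12 (-0.57 to 0.33) and Dll1 had -0.13 (-0.89 to 0.62), both within counting error. Hes1 had -0.31 (-0.51 to -0.12), Jag1 -0.60 and Notch3 -0.57, the last pair with intervals that included 0, and Heyl had 7 and 6 UMIs. Some of these counts turned on the cells used. With all barcodes or with doublets kept Notch2 had -0.51 and -0.47, in cells with Xist UMIs alone Dll4 had -0.37, and in those with Y-linked UMIs alone Jag1 had -0.37. Of the endothelial markers, Cdh5 was at 322 and 222 CPM in these cells, a ratio of -0.54 (-0.64 to -0.44), whereas Pecam1 was at 98.6 and 97.7, a ratio of -0.01 (-0.18 to 0.16). The part of either in the members' values was not tested. Hey1 and Hey2 were unlike between the vascular cluster of this class, which Cldn5 and Emcn led, and the endocardial one, where Hapln1 and Nfatc1 were among the leading genes. Hey2 was at 6.92 and 2.12 CPM (27 and 7 UMIs) in the vascular cluster and at 28.3 and 33.8 in the endocardial one, with ratios of -1.71 (-3.15 to -0.47) and 0.26 (-0.24 to 0.76). Hey1 was at 64.9 and 23.9 in the former and at 25.5 and 22.4 in the latter, with ratios of -1.44 and -0.19.

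Across all 13 populations with cells enough in both libraries, Notch2 and Notch3 were each lower labelled cKO in 13 of 13, and the interval lay below 0 in 12 of the 13. These populations share the same 2 libraries and are not repeats of the comparison. The median of all genes also lay below 0 in each of the 6 main classes, between -0.16 and -0.08. How many of all genes were lower in every population was not counted. Notch2 in CM-like cells reached 0.006 in an alternative. Notch1 was lower in 10 of 12 populations with at least 30 UMIs, with 6 intervals below 0 and 0 above. Jag1 was lower in 12 of 12 populations with at least 30 UMIs, with 7 intervals below 0. Hey1 was lower in 7 and higher in 6, with 4 intervals below 0 and 0 above. In the sinus venosus-like cells where it was highest, Hey1 had a log2 ratio of 0.06 (-0.11 to 0.23).

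The rest of the pathway was read from a list of 40 other genes. At least 1.5-fold lower labelled cKO were 7 of 31 compared in MLP-like, 6 of 30 in BrM-like, 6 of 26 in SoM/aSHF-like, 6 of 31 in pSHF-like, 7 of 27 in CM-like and 5 of 28 in endothelium-like cells. The shares of all genes counted lower in these classes were 18.1%, 17.4%, 15.5%, 13.1%, 12.7% and 15.0%, in the same order, and the list's counts lay near them in several classes. Higher were 2, 1, 2, 1, 0 and 1, where 4.44%, 6.31%, 3.91%, 3.29%, 4.84% and 3.30% of all genes were. Medians over the list lay between -0.32 and -0.15, nearer to those of all genes than the members' medians were in each class but SoM/aSHF-like.

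**Figure D4:**
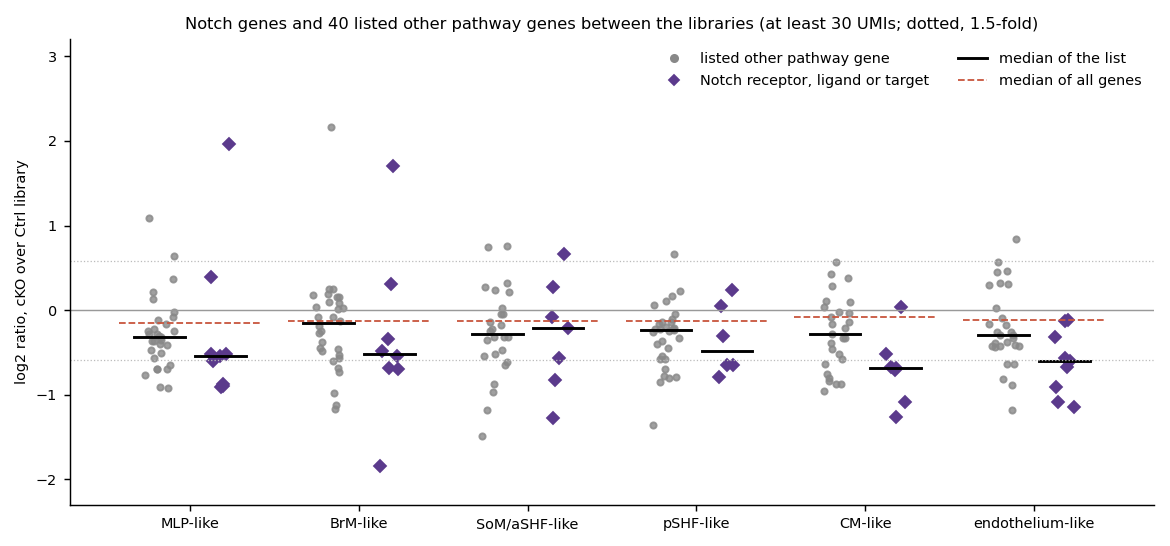
Log2 ratio between the libraries (labelled cKO over labelled Ctrl) of the listed other pathway genes (circles) and of the members (diamonds) in the 6 main classes, with lines for the medians of each list and of all genes. Points are not labelled by gene. The non-canonical ligand Dlk1 lies highest in BrM-like cells at 2.17, and Mib1, which activates ligands, lies below 0 in each class.

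Some of the genes counted lower act on the ligand or on receptor cleavage. Mib1, a ubiquitin ligase that ligands need in the sending cell, was lower in each of the 6 classes, with log2 ratios between -1.12 in BrM-like (67.9 and 31.2 CPM) and -0.63 in endothelium-like cells (61.7 and 39.7). Ncstn, a subunit of the gamma-secretase that cuts the receptor, was at least 1.5-fold lower in 5 classes, with -1.18 (-1.66 to -0.73) in endothelium. The proteases Adam10 and Adam17 make the preceding cut. Adam10 was at 154 and 99.6 in endothelium-like cells, and Adam17 at 35.1 and 17.8 in BrM-like cells. The co-activator gene Maml1 was counted lower in 5 classes, with log2 ratios from -0.87 to -0.69. Rbpj, named here for its role after its values were seen, did not reach 1.5-fold in any of the 6 classes, with ratios between -0.53 in BrM-like and -0.24 in MLP-like cells.

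Dlk1, a membrane protein related to the ligands that lacks their receptor-activating domain, was the gene on the other side. It stood at 73.8 and 331 CPM in BrM-like cells, a log2 ratio of 2.17 (2.05 to 2.28), and at 255 and 540 in MLP-like cells. SoM/aSHF-like (503 and 849), endothelium-like (35.6 and 64.0) and pSHF-like cells (82.3 and 131) also passed 1.5-fold, while CM-like cells (96.4 and 143) did not. The inhibitor and target gene Nrarp was counted in opposite directions, higher in MLP-like (11 and 25 UMIs) and lower in BrM-like cells (25 and 16 UMIs), with intervals that included 0. In BrM-like cells Numbl and Numb, whose products restrain the receptor, had ratios of -1.17 and -0.60. Neurl1b, another ligase for ligands, was at 11.1 and 5.74 in CM-like cells, and Dtx4 and Dtx3, of a family of receptor-binding ligases, were lower in pSHF-like (3.23 and 1.26) and endothelium-like cells (22.6 and 12.2). Also counted lower were Mib2 and Hes7 in MLP-like, Psen2 and Maml2 in SoM/aSHF-like and CM-like, and Maml3 in CM-like cells, and Neurl1a was counted higher in SoM/aSHF-like cells.

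Genes whose levels ran most like a member's across populations were found from 27 levels, on the scale of log2 of CPM plus 5, among 4569 genes. The points share their libraries and depths, so the coefficients are descriptions. Nearest to Notch1 were Elk3, Rhoj and Ramp2 (Pearson's r of 0.94, 0.93 and 0.92), and nearest to Dll4 were Flt4, Sox7 and Mmrn2 (0.97 each). Jag1 had lower likeness, with Synpo2 at 0.78, Npnt at 0.77 and Smim20 at 0.76. Hes1 was nearest to Nipbl, Lman1 and Spg20 (0.90 each), Hey1 to Creb3l2 (0.85), Tmem65 (0.83) and Ugp2 (0.82), and Hey2 to Lgmn (0.88), Gadd45g (0.84) and Crip2 (0.82).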

How the data were processed

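The authors used Cell Ranger 3.1.0 and the mm10 build for alignment and deposited raw, unnormalized counts of UMIs per gene and cell barcode, for 2 libraries. Groups follow the genotypes in the labels. Cells with at least 1000 genes and at most 10% mitochondrial UMIs were kept, which left out 411 and 508 cells labelled Ctrl and cKO. The highest-scoring presumed doublets were removed at 0.8% per 1000 cells (416 and 804), since Scrublet's own threshold (scanpy 1.11.5) marked 0% and 7.81%. Clustering used Seurat 5.3.0 under R 4.3.3 (2000 variable genes, 30 dimensions, integration of the libraries, resolution 1) and gave 22 clusters. Members, listed pathway genes and technical genes (189), and 1202 genes that differed between the libraries in a first pass, were left out of it. A cluster was named when at least 3 and over 50% of a marker list stood out, with at least 1 of them among its 10 leading genes and no other list holding more of those. Other clusters stayed unnamed. These names are rebuilt, so populations may differ from the study's.

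UMIs were summed per library and class. Intervals are exact (Poisson for levels, conditional for ratios, Clopper-Pearson for shares) at 95%, and a count of 0 was bounded at 3 counts. All 10 members are named in each of the 6 main classes (the plot of levels shows the others), as are pathway genes at least 1.5-fold apart with at least 30 UMIs (up to 8 per class by size), and the 3 genes most like each of 6 members among those reaching 50 CPM (counts-per-million). The members and lists were chosen with earlier results of these data known. No test between genotypes was possible. The counting code was checked on simulated data. Positions and promoters were matched by symbol to RefSeq tables of GRCm38.p6.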

Additional observations from a re-analysis of the deposited data

Results flagged for a closer look

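Hey2 stood out because its level differed at least 1.5-fold between the libraries in opposite directions in different populations. Its log2 ratio, labelled cKO over labelled Ctrl, was 1.70 in BrM-like cells, against -0.70 in CM-like and -1.28 in SoM/aSHF-like cells. The difference between the populations was not tested, since each rests on 1 library per genotype.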

How the results depend on the processing

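No paired analysis was possible because each group had 1 library, and no library could be left out. Alternatives were all barcodes, doublets kept, no integration, the first clustering pass, resolution 0.6, another scaling, per-cell means, and cells of 1 sex by Xist or Y-linked UMIs. The members' medians stayed near their main values in 81 of 84 cases and those of the pathway list in 84 of 84. Of 779 ratios of single members, which also include clusters of the MLP-like and pSHF-like classes taken alone, 714 stayed within their counting interval. The members' median in SoM/aSHF-like cells went from -0.21 to -0.45 in cells with Xist UMIs alone, and the log2 ratio of Hey2 in CM-like cells turned from -0.70 to 0.052 among cells holding Y-linked but no Xist UMIs. The causes were not tested. At 2-fold in place of 1.5-fold, members counted lower over the 6 classes fell from 22 to 6, pathway genes lower from 37 to 6 and higher from 7 to 2. With no filter on counts, members counted higher went from 3 to 6 and pathway genes from 7 to 14. Dll4 in BrM-like cells stayed between 18 and 20 UMIs labelled Ctrl and 0 labelled cKO with all barcodes, doublets kept, the first pass and resolution 0.6. In MLP-like cells under these it ranged from 9 to 14 UMIs labelled Ctrl, with 0 labelled cKO or, with doublets kept, 1. Without integration only 3 BrM-like and 9 MLP-like cells labelled cKO were named, and 33 ratios had no value. Shares of cells moved beyond their intervals in 249 of 400 cases when thinning was left out or set to 3000 UMIs. Dll1, Dll4 and Heyl reached 30 UMIs in 2, 1 and 3 of 13 populations, which limits what can be compared for them.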
